A study of Mus musculus with 16 samples.

Results

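Chemokines are small secreted proteins that draw white blood cells along a gradient, and kidney tubule cells make several of them. This account follows 10 chemokine genes in mIMCD3 cells treated with doxycycline (DOX), a tetracycline antibiotic widely used to switch on transgenes, or with its vehicle DMSO. The genes are *Ppbp*, *Cxcl1*, *Cxcl2*, *Cxcl5*, *Cxcl10*, *Ccl5*, *Cxcl16*, *Cx3cl1*, *Ccl2* and *Ccl28*. They were chosen by name, with earlier results of these data known, so counts over them are not independent evidence. Each matched 1 of the 54393 genes of the count table and 1 gene of the TPM table.

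The mIMCD3 line was derived from the inner medulla of a mouse carrying an SV40 transgene, and the labels give its genotype as wild type. All cells had first spent 10 days on permeable filters in the same serum-containing epithelial medium. They then received either 2 µg/mL DOX or DMSO, renewed every day, for 3 days or 6 days. This gave 4 groups of 4 libraries from polyadenylated RNA: DMSO 3 days, DOX 3 days, DMSO 6 days and DOX 6 days. The labels do not say whether the replicates of a group were separate cultures, so each p below measures the spread between these libraries, which may be technical. All 16 libraries come from 1 cell line.

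Chemokines that carry the ELR motif before their first cysteines, here *Cxcl1*, *Cxcl2*, *Cxcl5* and *Ppbp*, bind Cxcr2 and mainly draw neutrophils. Their genes lie close together on mouse chromosome 5, and *Cxcl1* and *Cxcl2* are textbook targets of NF-κB. *Cxcl10* and *Ccl5* draw T cells and other leukocytes, and both are induced by interferon and by antiviral sensing. *Cxcl16* and *Cx3cl1* are unusual in being made as membrane-anchored proteins that proteases such as Adam10 and Adam17 release. *Ccl2* draws monocytes, and *Ccl28* is a chemokine of mucosal epithelia.

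On GRCm38, the 4 neutrophil-drawing genes all lay on the plus strand within 146.6 kb of chromosome 5. *Cxcl5* was at chr5:90759360-90761624, *Ppbp* at chr5:90768518-90770063, *Cxcl1* at chr5:90891241-90893115 and *Cxcl2* at chr5:90903871-90905938. *Cxcl10* lay on the minus strand of the same chromosome, outside this cluster, at chr5:92346638-92348889. On chromosome 11 the annotation places *Cxcl16* at chr11:70453983-70459984 and *Ccl5* at chr11:83525778-83530518, both on the minus strand, and *Ccl2* at chr11:82035571-82037453 on the plus strand. *Cx3cl1* was at chr8:94772009-94782427 and *Ccl28* at chr13:119623819-119654359, both on the plus strand.

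Because the 4 genes of the chromosome 5 cluster were lower with DOX and *Cxcl10* was higher at 3 days, the 250 bases before the start of *Ppbp*, *Cxcl1*, *Cxcl2* and *Cxcl10* are shown, from RefSeq on GRCm38.p6 and read 5′ to 3′ along the gene. Capitals mark matches to a κB-type pattern, GGGNNNTTCC, or an interferon-response pattern, GAAANNGAAA, on either strand. The windows are *Ppbp* chr5:90768268-90768517 (plus strand), *Cxcl1* chr5:90890995-90891244 (plus), *Cxcl2* chr5:90903649-90903898 (plus) and *Cxcl10* chr5:92348890-92349139 (minus).
Ppbp: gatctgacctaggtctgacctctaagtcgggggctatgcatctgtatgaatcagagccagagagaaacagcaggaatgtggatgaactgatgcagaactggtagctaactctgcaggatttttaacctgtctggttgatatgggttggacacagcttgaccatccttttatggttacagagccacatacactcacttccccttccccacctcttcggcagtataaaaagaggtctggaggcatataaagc
Cxcl1: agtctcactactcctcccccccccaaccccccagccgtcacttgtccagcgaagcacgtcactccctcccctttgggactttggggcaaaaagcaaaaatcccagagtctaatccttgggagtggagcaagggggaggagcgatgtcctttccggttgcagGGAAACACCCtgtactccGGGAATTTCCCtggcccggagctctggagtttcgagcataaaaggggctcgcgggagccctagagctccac
Cxcl2: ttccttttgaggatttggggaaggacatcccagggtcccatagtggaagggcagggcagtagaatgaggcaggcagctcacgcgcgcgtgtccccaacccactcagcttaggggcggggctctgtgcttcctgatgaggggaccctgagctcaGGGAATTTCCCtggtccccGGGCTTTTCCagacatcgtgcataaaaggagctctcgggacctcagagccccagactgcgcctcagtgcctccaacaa
Cxcl10: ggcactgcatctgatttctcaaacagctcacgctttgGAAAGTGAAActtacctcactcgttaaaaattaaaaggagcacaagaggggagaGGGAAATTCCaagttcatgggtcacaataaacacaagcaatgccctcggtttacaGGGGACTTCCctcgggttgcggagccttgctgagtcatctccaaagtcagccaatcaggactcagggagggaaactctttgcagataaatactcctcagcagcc
The *Cxcl1* and *Cxcl2* windows held 3 κB-type matches each, of which 2 overlapped because the pattern reads almost the same on both strands. Their longest common run, gggaatttccctgg, was 14 bases long and contained that overlapping pair. The *Ppbp* window, by contrast, held no match to either pattern. The *Cxcl10* window held 2 κB-type matches that did not overlap and the only interferon-response match among the windows used. Of the 32851 RefSeq windows of 300 bases, which also cover the first 50 bases of the transcript, 5.56% held the κB-type pattern and 3.44% the interferon-response pattern. The AP-1 pattern TGANTCA, found in 7.81% of all windows, occurred once each in the windows of *Ppbp*, *Cxcl10* and *Ccl28*. Matches are letters in a window and were not tested as binding sites. RefSeq windows were used for 6 of the 10 genes, the other two being *Cx3cl1*, whose window held none of the 3 patterns, and *Ccl28*.

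Levels are given as the authors' TPM, which corrects for transcript length and so allows genes to be compared. *Ppbp*, which encodes the precursor of the platelet chemokine CXCL7, was the most abundant of the 10 in DMSO, at 434 ± 11.4 TPM at 3 days and 578 ± 34.8 TPM at 6 days (SD, n = 4 each). Over the 8 DMSO libraries it ranked 263rd of the 53354 genes of the TPM table. *Cxcl10* followed at 133 ± 4.46 TPM at 3 days and 163 ± 29.9 TPM at 6 days, and no library of one gene reached the range of the other.

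Behind these came a middle tier. *Ccl5*, *Cxcl16* and *Cxcl1* averaged 66.3, 55.5 and 50.2 TPM in DMSO at 3 days, and neighbours in this order overlapped. At 6 days *Cxcl16* and *Ccl5* averaged 60.3 and 59.4 TPM and again overlapped, as did *Ccl5* and *Cxcl1* at 55.0 TPM. A lower tier held *Ccl2* at 10.6 and 12.9 TPM, and then *Cxcl5*, *Cx3cl1* and *Cxcl2*, which averaged between 4.28 and 7.53 TPM with overlapping neighbours at both times. *Ccl28* was last, at 0.474 and 0.353 TPM.

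**Figure D1:**
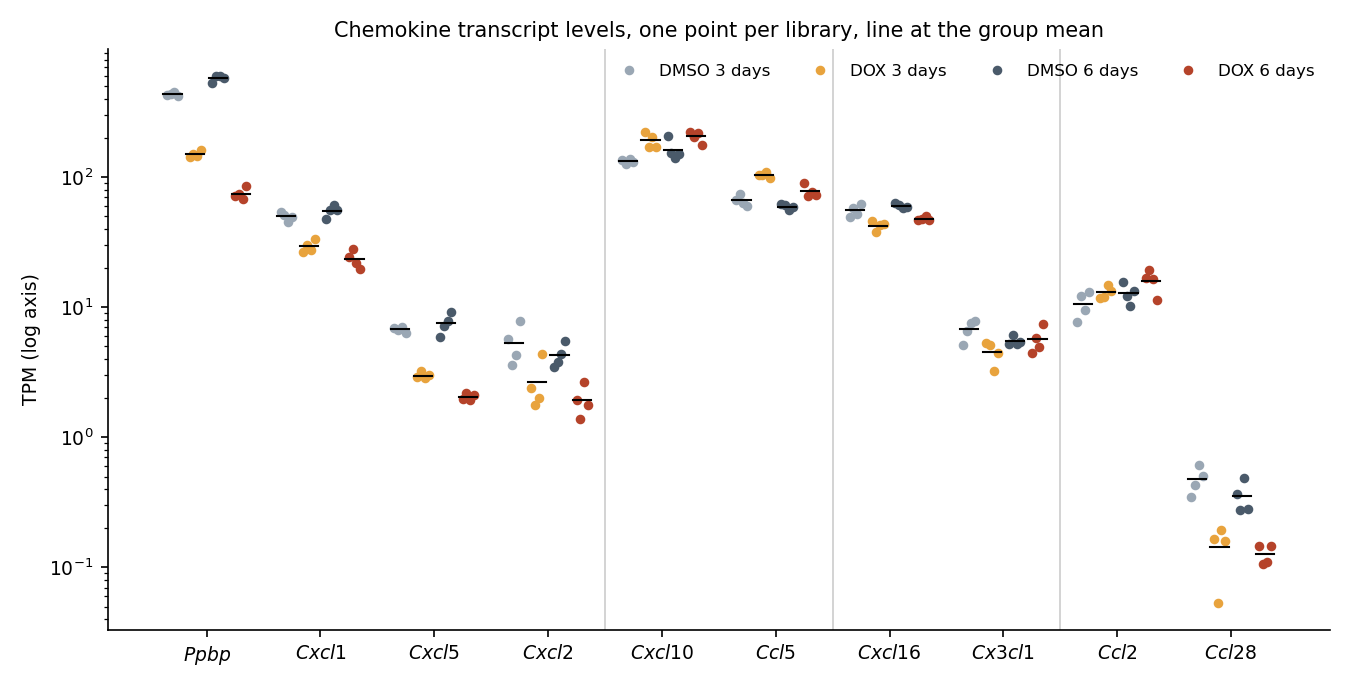
TPM of the 10 chemokine genes on a log axis, with 1 point for each of the 16 libraries and a line at each group mean; colours give treatment and time, and grey lines part the chromosome 5 genes, the interferon-linked pair, the membrane-anchored pair and the other 2. *Ppbp* lies at 424 TPM or more in every DMSO library and at 161 TPM or less in every DOX library, whereas *Ccl5* lies higher with DOX at both times and *Cxcl10* at 3 days, its groups overlapping at 6 days.

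Under DOX the order at the top changed. *Ppbp* exceeded *Cxcl10* in all 8 DMSO libraries, at 2.55 to 4.28 times its TPM, and *Cxcl10* exceeded *Ppbp* in all 8 DOX libraries. The ratio of *Ppbp* to *Cxcl10* was between 0.641 and 0.934 at 3 days of DOX and between 0.311 and 0.478 at 6 days. In DOX at 3 days *Cxcl10* averaged 192 ± 25.9 TPM, *Ppbp* 149.8 ± 7.83 TPM and *Ccl5* 103.8 ± 4.46 TPM, with no overlap between neighbours. In DOX at 6 days *Cxcl10* averaged 206 ± 20.8 TPM, followed by *Ccl5* at 78.4 ± 8.47 TPM and *Ppbp* at 74.8 ± 7.26 TPM, and those last values overlapped.

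Changes were tested on the estimated counts with edgeR, with all 16 libraries in 1 fit and p adjusted by the Benjamini-Hochberg method over the 13234 genes that reached 1 CPM (the count scaled to the library total) in at least 4 libraries. Called means an adjusted p under 0.05 against a fold-change threshold of 1.2, and SE is the standard error of a log2 fold change. At 3 days 8 of the 10 genes were called, against 12.5% of all genes tested: 6 were lower with DOX, the direction of 7.22% of all genes, and 2 higher, the direction of 5.30%. At 6 days 6 of 10 were called, against 21.6% of all genes: 5 were lower, beside a background of 11.6%, and 1 higher, beside 10.0%. All 10 genes passed the abundance filter, but *Ccl28* did so through the DMSO libraries alone, and without it 7 of 9 and 5 of 9 were called. The 4 DOX and 4 DMSO libraries did not overlap in CPM for 8 of the 10 genes at 3 days and 7 at 6 days, whereas 38.6% and 43.0% of all tested genes were separated in this way. The median log2 fold change of the 10 was -0.55 at 3 days and -0.70 at 6 days, that of all tested genes being 0.00 at both times. Without *Ccl28* the median was -0.48 and -0.29, and 7 of 9 and 6 of 9 genes did not overlap.

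All 4 neutrophil-drawing genes of chromosome 5 were lower with DOX at both times, with median log2 fold changes of -0.96 at 3 days and -1.503 at 6 days. *Ppbp* fell most. At 3 days its 4 DMSO libraries held 429.7, 433, 451 and 424 TPM and its 4 DOX libraries 143, 149.9, 146 and 161 TPM. At 6 days the DMSO libraries held 528, 600.1, 604 and 579 TPM and the DOX libraries 71.8, 74.8, 67.9 and 84.8 TPM. The highest DOX library thus lay far below the lowest DMSO library at each time. The log2 fold change was -1.34 (SE 0.080, edgeR adjusted p = 7.61e-10) at 3 days and -2.89 (SE 0.085, edgeR adjusted p = 1.17e-15) at 6 days, which left 39.4% and 13.5% of the vehicle level.

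*Cxcl5*, another neutrophil attractant made by epithelia, lies closest to *Ppbp* among the 4 and was much rarer. It measured 6.95, 6.68, 7.08 and 6.32 TPM in DMSO and 2.89, 3.22, 2.85 and 2.99 TPM in DOX at 3 days. At 6 days it measured 5.95, 7.15, 7.85 and 9.17 TPM in DMSO and 1.96, 2.21, 1.94 and 2.12 TPM in DOX. The groups stood apart at both times. Its log2 fold change was -0.998 (SE 0.122, edgeR adjusted p = 3.16e-05) at 3 days and -1.80 (SE 0.128, edgeR adjusted p = 1.64e-09) at 6 days.

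*Cxcl1*, a neutrophil attractant also known as KC, fell at both times. In the order of the labels its libraries held 54.2, 51.4, 45.3 and 49.8 TPM in DMSO and 26.8, 30.2, 27.5 and 33.2 TPM in DOX at 3 days. At 6 days they held 47.3, 56.2, 60.7 and 55.9 TPM in DMSO and 24.6, 28.0, 21.7 and 19.5 TPM in DOX. Every DOX library was below every DMSO library. The log2 fold change was -0.62 (SE 0.118, edgeR adjusted p = 0.00979) at 3 days and -1.21 (SE 0.121, edgeR adjusted p = 1.01e-06) at 6 days. The call at 3 days was lost with DESeq2.

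*Cxcl2*, or MIP-2, was the most variable of the 4. In DMSO it measured 5.69, 3.61, 4.31 and 7.79 TPM at 3 days, and in DOX 2.41, 1.78, 2.01 and 4.396 TPM. Replicate 4 of DOX exceeded replicates 2 and 3 of DMSO, so these groups overlapped. At 6 days the DMSO libraries held 3.45, 3.82, 4.39 and 5.47 TPM and the DOX libraries 1.95, 1.39, 2.68 and 1.79 TPM, without overlap. The log2 fold change was -0.93 (SE 0.223, edgeR adjusted p = 0.0144) at 3 days and -1.11 (SE 0.233, edgeR adjusted p = 0.00256) at 6 days. The call at 3 days was lost with DESeq2, with limma on log2 TPM at either pseudocount, and without replicate 4 of DMSO 3 days or replicate 2 or 3 of DOX 3 days, and that at 6 days with limma on log2(TPM + 1). Of the 31-base stretches of its transcripts 7.59% also occur in *Cxcl3*, a paralogue with at most 9 counts in any library.

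Over the 16 libraries the log2 CPM of *Ppbp* and *Cxcl5* had a Pearson r of 0.98, a description in which the treatment groups are shared. With group means removed it was 0.61. Over the 6 pairs of the chromosome 5 genes r ran from 0.84 to 0.98, but with group means removed from 0.27 to 0.61, and the pairs with *Cxcl2* were the lowest, at 0.27 with *Cxcl5*, 0.27 with *Ppbp* and 0.37 with *Cxcl1*.

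The 11 leukocyte markers summed to between 26.1 and 34.6 TPM in DMSO and 12.8 and 17.5 TPM in DOX at 3 days, and to between 31.01 and 34.0 TPM and 15.9 and 17.8 TPM at 6 days. This sum was lower in the same libraries as the chromosome 5 genes. Most of it was *Cd68* and *Csf1r*, while the defining *Ptprc* had at most 22 counts, *Lyz2* at most 3 and *S100a9* at most 2. None of the 11 was at 0 in every library. Among 4 platelet markers, relevant to *Ppbp*, *Gp1bb* was at 0 in every library, *Gp9* had at most 2 and *Gp6* at most 7 counts, and *Itga2b* averaged between 4.63 and 6.06 TPM. The 6 epithelial markers also summed lower with DOX, without overlap, at 1570 to 1820 TPM against 2125 to 2359 TPM in DMSO at 3 days, and at 1590 to 1799 TPM against 2327 to 2586 TPM at 6 days. On log2(TPM + 1) the median log2 fold change of all genes was itself -0.15 at 3 days and -0.05 at 6 days. The part of the leukocyte and epithelial marker differences in the chemokine results was not tested.

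**Figure D2:**
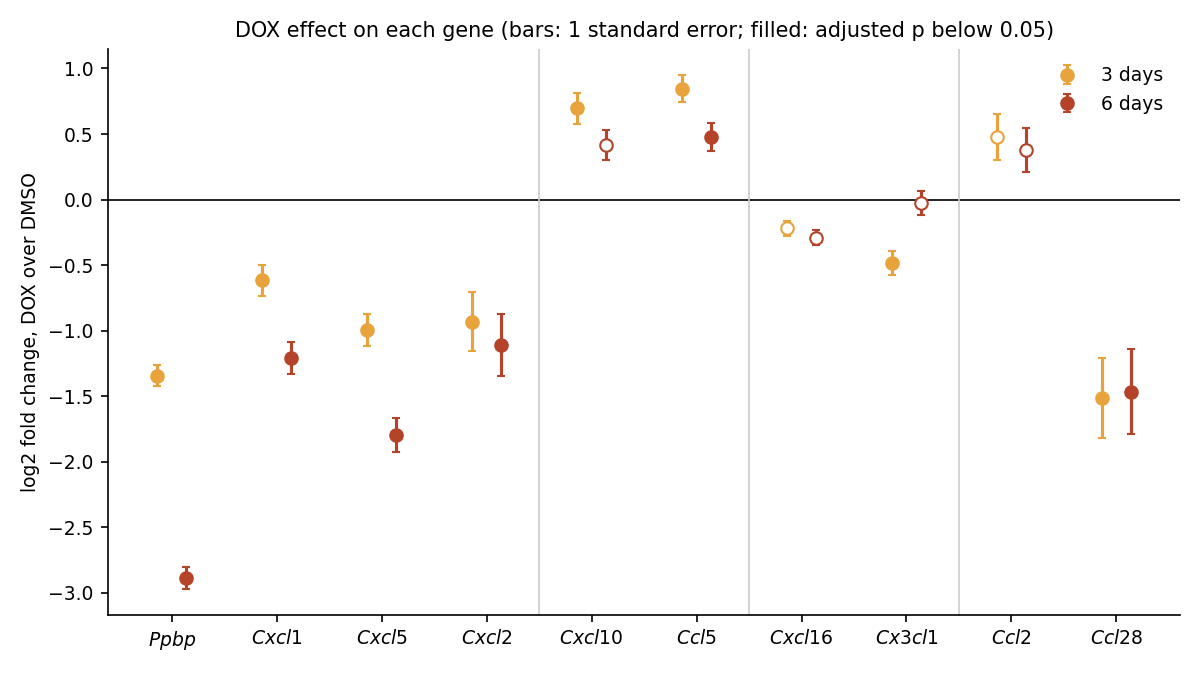
Log2 fold change of DOX over DMSO for each chemokine gene at 3 days (orange) and 6 days (red), from edgeR, with bars of 1 standard error; filled points passed an adjusted p of 0.05 and open points did not. The chromosome 5 genes lie below 0 at both times, with *Ppbp* at -2.89 at 6 days, and *Cxcl10* and *Ccl5* lie above 0, *Cxcl10* at 6 days with an open point.

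Both interferon-linked genes were called higher at 3 days, and *Ccl5* alone of the pair at 6 days. *Cxcl10*, also named IP-10, held 136, 127, 137 and 132 TPM in DMSO and 223, 169, 205 and 172 TPM in DOX at 3 days, and these groups did not overlap. At 6 days the DMSO libraries held 207, 153, 141 and 151 TPM and the DOX libraries 224, 205, 218 and 177 TPM. There the first DMSO library lay among the DOX libraries. The log2 fold change was 0.69 (SE 0.115, edgeR adjusted p = 0.00285) at 3 days and 0.41 (SE 0.115, edgeR adjusted p = 0.125) at 6 days. The first of these was not called by limma on log2 TPM with either pseudocount. The second was called without replicate 1 of DMSO 6 days (log2 fold change 0.55, adjusted p = 0.00397), without replicate 4 of DOX 6 days, without the abundance filter, without the fold threshold, and with the correction for transcript length and GC content combined with the replicate block.

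*Ccl5*, or RANTES, measured 67.4, 74.0, 63.9 and 59.8 TPM in DMSO and 103.9, 103.6, 109 and 98.4 TPM in DOX at 3 days. At 6 days it measured 62.5, 60.9, 55.8 and 58.6 TPM in DMSO and 90.7, 72.3, 76.8 and 73.6 TPM in DOX. All DOX libraries were above all DMSO libraries at both times. The log2 fold change was 0.85 (SE 0.103, edgeR adjusted p = 5.12e-05) at 3 days and 0.47 (SE 0.107, edgeR adjusted p = 0.0394) at 6 days. The call at 6 days was lost with DESeq2, with limma at either pseudocount, and without replicate 3 or 4 of DMSO 6 days or replicate 1 or 3 of DOX 6 days. With group means removed, the log2 CPM of *Cxcl10* and *Ccl5* had a Pearson r of 0.69 over the 16 libraries, which share depth and handling within each point.

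The membrane-anchored pair gave 1 call, for *Cx3cl1* at 3 days. *Cxcl16*, the ligand of Cxcr6, ranged from 49.8 to 61.7 TPM in DMSO and from 38.1 to 45.8 TPM in DOX at 3 days, and from 57.6 to 63.4 TPM and 46.7 to 50.2 TPM at 6 days. The groups did not overlap at either time, but the fold sizes, 1.16 at 3 days and 1.22 at 6 days, lay close to the threshold of 1.2. Its log2 fold change was -0.22 (SE 0.057, edgeR adjusted p = 0.992) at 3 days and -0.29 (SE 0.057, edgeR adjusted p = 0.368) at 6 days, and without the fold threshold both passed.

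*Cx3cl1*, or fractalkine, the ligand of Cx3cr1, held 5.10, 6.54, 7.60 and 7.79 TPM in DMSO and 5.32, 5.10, 3.23 and 4.45 TPM in DOX at 3 days. These groups overlapped in TPM but not in CPM. At 6 days DMSO libraries ranged from 5.23 to 6.15 TPM and DOX libraries from 4.42 to 7.504 TPM. Its log2 fold change was -0.48 (SE 0.091, edgeR adjusted p = 0.0270) at 3 days and -0.03 (SE 0.090, edgeR adjusted p = 1.00) at 6 days. The call at 3 days was lost with DESeq2, with limma on log2 TPM, with the correction for transcript length and GC content with or without the replicate block, and without replicate 4 of DMSO 3 days or replicate 2 or 3 of DOX 3 days.

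*Ccl2*, also called MCP-1, was not called at either time. It ranged from 7.70 to 13.0 TPM in DMSO and from 11.8 to 14.8 TPM in DOX at 3 days, and from 10.3 to 15.7 TPM and 11.3 to 19.3 TPM at 6 days, with overlap at both. Its log2 fold changes were 0.48 (SE 0.172, edgeR adjusted p = 0.201) and 0.38 (SE 0.168, edgeR adjusted p = 0.318). Only without the fold threshold did it pass at 3 days.

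*Ccl28* was near the limit of detection, and its estimated counts show this better than TPM. The DMSO libraries held 20, 33, 31 and 28 counts and the DOX libraries 11, 4, 11 and 11 counts at 3 days. At 6 days the DMSO libraries held 20, 17, 27 and 16 counts and the DOX libraries 10, 8, 5 and 9 counts. No DOX library reached a DMSO library of its own time. The log2 fold change was -1.52 (SE 0.304, edgeR adjusted p = 0.00223) at 3 days and -1.47 (SE 0.321, edgeR adjusted p = 0.00257) at 6 days. No DOX library reached 1 CPM, so the gene entered the test only because its DMSO libraries were higher. It was not called by limma on log2(TPM + 1), which compresses such low values to -0.36 and -0.26.

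Whether the DOX effect changed between 3 and 6 days was tested as the difference of the 2 log2 fold changes, by edgeR without a fold threshold. It was called for 4 of the 10 genes, against 17.0% of all genes. *Ppbp* differed by -1.54 (SE 0.112, edgeR adjusted p = 6.74e-08) and *Cxcl5* by -0.80 (SE 0.178, edgeR adjusted p = 0.00573), the fall being deeper at 6 days. *Cxcl1* differed by -0.59 (SE 0.169, edgeR adjusted p = 0.0219), and *Cx3cl1* by 0.46 (SE 0.128, edgeR adjusted p = 0.0189) in the other direction. With the correction for transcript length and GC content the *Cxcl1* difference shrank to -0.24 and was not called, and that of *Cx3cl1* was not called either. With a threshold of 1.2 on the difference *Ppbp* alone passed, and with limma on log2 TPM *Cxcl1* and *Cx3cl1* did not pass at either pseudocount and *Cxcl5* did not at a pseudocount of 1. The *Cxcl1* call was also lost without replicate 4 of DMSO 3 days, replicate 2 of DMSO 6 days, replicate 2 or 4 of DOX 3 days or replicate 3 of DOX 6 days, and the *Cx3cl1* call without replicate 4 of DMSO 3 days. *Cxcl2* differed by -0.18 (SE 0.322, edgeR adjusted p = 0.745), *Cxcl10* by -0.28 (SE 0.162, edgeR adjusted p = 0.251) and *Ccl5* by -0.37 (SE 0.149, edgeR adjusted p = 0.0861), none of them called, although *Ccl5* was called without replicate 1 of DOX 3 days or of DOX 6 days.

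Time in vehicle alone was compared as DMSO at 6 days against DMSO at 3 days. No gene was called by edgeR, 0% of those tested, although 172 had an unadjusted p under 0.05, and DESeq2 and limma called none either. Among the 10, 1 gene had such a p: *Ppbp* was higher at 6 days in all 4 libraries, with a log2 fold change of 0.35 (SE 0.078, edgeR adjusted p = 1.00). Without the fold threshold it was called. The DMSO 3 days and 6 days groups are also the references of the DOX comparisons, so the *Ppbp* difference between times holds this rise as well as the lower DOX values.

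Summed over the 10 genes, the level was 769 ± 7.97 TPM in DMSO and 541 ± 22.6 TPM in DOX at 3 days, and 946 ± 10.6 TPM in DMSO and 457 ± 23.9 TPM in DOX at 6 days (SD, n = 4). *Ppbp* made up 56.5% ± 0.995 of this sum in DMSO and 27.8% ± 2.29 in DOX at 3 days, and 61.1% ± 3.31 and 16.5% ± 2.43 at 6 days. *Cxcl10* and *Ccl5* together went from 25.9% ± 0.617 to 54.6% ± 3.27 at 3 days and from 23.5% ± 3.53 to 62.2% ± 2.86 at 6 days. In TPM this pair summed to 199 ± 5.13 in DMSO and 296 ± 28.5 in DOX at 3 days. At 6 days the pair summed to 222 ± 32.3 TPM in DMSO and 285 ± 27.2 TPM in DOX, with overlapping ranges. The share of the pair thus also carries the lower sum of all 10 genes in DOX. The other chromosome 5 genes without *Ppbp* summed to 62.3 ± 4.30 TPM and 35.1 ± 3.94 TPM at 3 days, and to 66.9 ± 7.16 TPM and 27.5 ± 3.45 TPM at 6 days. These sums are in TPM, where the median log2 fold change of all genes was itself -0.15 at 3 days and -0.05 at 6 days, on log2(TPM + 1). In bulk RNA, fewer cells making a transcript and less transcript in each cell cannot be told apart.

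**Figure D3:**
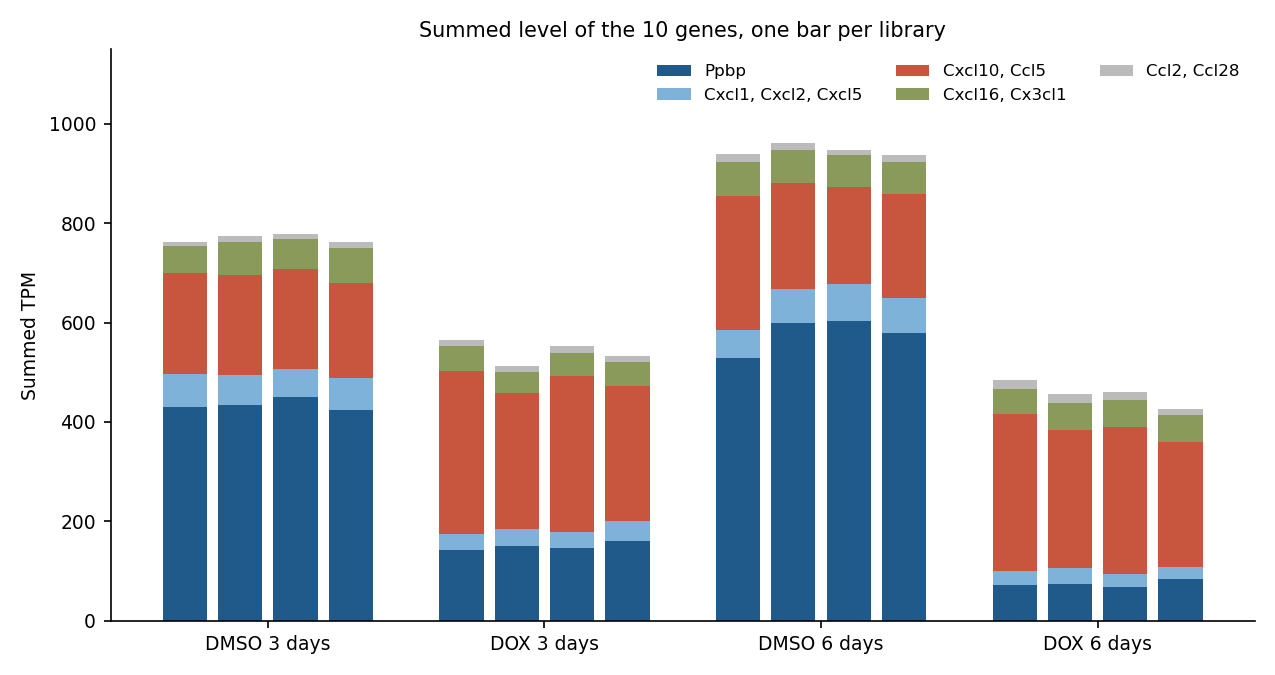
Summed TPM of the 10 chemokine genes in each of the 16 libraries, with 1 stacked bar per library and colours for *Ppbp*, the other chromosome 5 genes, *Cxcl10* with *Ccl5*, *Cxcl16* with *Cx3cl1*, and *Ccl2* with *Ccl28*. The *Ppbp* segment shrinks from 578 TPM on average in DMSO at 6 days to 74.8 TPM in DOX, and the segment of *Cxcl10* with *Ccl5* is the largest in every DOX library.

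The 10 genes held most of the summed TPM of the 38 ligands listed here, all chosen with earlier results of these data known. Among 28 other ligands listed for comparison, 4 were abundant enough to test: *Ccl25*, *Ccl27a*, *Cxcl11* and *Cxcl14*. The 10 made up between 94.4% and 97.0% of the summed TPM of all 38 ligands in every library. *Cxcl11*, which shares the receptor Cxcr3 with *Cxcl10*, was called higher at 3 days (log2 fold change 0.71, edgeR adjusted p = 0.0333), and none of the 4 was called at 6 days. The shares of all tested genes were 5.30% higher and 7.22% lower at 3 days, and 10.0% and 11.6% at 6 days. Of 23 chemokine receptors 1 was tested, the scavenging receptor *Ackr3*, which averaged 1.67 TPM in DMSO and 0.778 TPM in DOX at 3 days and was called lower at both times (log2 fold change -0.85 and -1.27, edgeR adjusted p = 0.00603 and 4.00e-05). *Cxcr2*, the receptor of the neutrophil-drawing chemokines, had between 3 and 26 counts, and *Cxcr3* had none in any library, which allows up to 0.177 CPM per library for a count of 0.

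Among 6 genes for release and processing, 4 were tested. *Dpp4*, the protease that trims *Cxcl10*, was called lower at 3 days (-0.71, edgeR adjusted p = 0.000286) and at 6 days (-0.53, edgeR adjusted p = 0.00898), and *Adam17* was called lower at 6 days (-0.55, edgeR adjusted p = 0.000247). *Adam10* was not called at either time. Of all tested genes 7.22% were called lower at 3 days and 11.6% at 6 days. Of 16 inducing cytokines and their receptors 11 were tested, with 1 higher and 1 lower at 3 days, near the 12.5% of all genes, and 2 higher and 3 lower at 6 days, beside 21.6%. *Csf3*, the neutrophil growth factor G-CSF, was among those lower at 6 days (-1.19, edgeR adjusted p = 0.00338), and its log2 fold change at 3 days was -0.72 (edgeR adjusted p = 0.138). The others lower at 6 days were *Il33* (-1.62) and *Il1rn* (-0.51). *Csf1* was higher at both times (0.47 and 1.07), *Il17ra* was higher at 6 days (0.62), and *Tnfrsf1b* was lower at 3 days (-0.73). *Il1b* and *Tnf*, textbook inducers of *Cxcl1* and *Cxcl2*, had at most 2 counts in any library, *Il6* at most 8 and *Il1a* at most 19.

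All 15 NF-κB and AP-1 factors and feedback genes were tested, and 6 were lower and none higher at 3 days, while 7 were lower and 1 was higher at 6 days. Of all tested genes 7.22% were lower and 5.30% higher at 3 days, and 11.6% and 10.0% at 6 days. The list median was -0.32 and -0.36, beside 0.00 for all tested genes. Those lower at both times included the NF-κB feedback genes *Tnfaip3* (-0.61 and -0.82) and *Nfkbie* (-0.75 and -0.87) and the AP-1 subunits *Fos* (-0.85 and -0.97) and *Jun* (-0.84 and -1.26), and *Relb* was the 1 that was higher. *Rela* and *Nfkbia* were not called at either time. All 16 interferon factors and targets were tested, and 10 were higher at 3 days and 12 at 6 days, none lower, beside 5.30% and 10.0% of all genes higher, with list medians of 0.48 and 0.61. *Rsad2*, which encodes the antiviral protein viperin, was higher by 0.67 at 3 days and 1.01 at 6 days. These lists were chosen with earlier results of the same libraries known, so their counts are not independent evidence.

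Of 8 RNA-binding proteins and other factors that govern the decay of chemokine messages, 1 was lower at 3 days, *Zfp36* (-0.46, edgeR adjusted p = 0.0119), which encodes tristetraprolin. At 6 days 2 were lower, *Zc3h12a* (-0.58) and *Rc3h1* (-0.50). Of all tested genes 7.22% were lower at 3 days and 11.6% at 6 days. The AU-rich heptamer that tristetraprolin binds, TATTTAT, occurred at least 5 times in the *Cxcl2* main transcript and at least 4 times in that of *Cxcl1*. In *Cxcl5* and *Cx3cl1* it occurred at least once each, and in the others it was absent. Among tested protein-coding genes 34.2% had at least 1 and 1.51% had 4 or more. *Ppbp*, which had the lowest log2 fold change of the 10 at 6 days, had none. Heptamers were counted over the whole main transcript, the longest protein-coding one, without overlapping matches. Where any was found the count is therefore a minimum, and so is the share with 4 or more. The relation of heptamers to the fold changes was not tested.

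The genes around the cluster were listed too. Within 1 Mb of the chromosome 5 genes lay 40 other annotated genes, of which 8 were tested. At 3 days 2 were higher and 1 lower, beside 5.30% and 7.22% of all tested genes. At 6 days 2 were higher and none lower, beside 10.0% and 11.6%. *Areg*, which encodes amphiregulin, was higher at both times (1.03 and 0.84, edgeR adjusted p = 0.000694 and 0.00171), as was *Btc* (0.48 and 0.57), another EGF-family ligand. *Rassf6* was lower at 3 days (-0.44, edgeR adjusted p = 0.00936). Whether these genes differed from the cluster was not tested as a set.

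**Figure D4:**
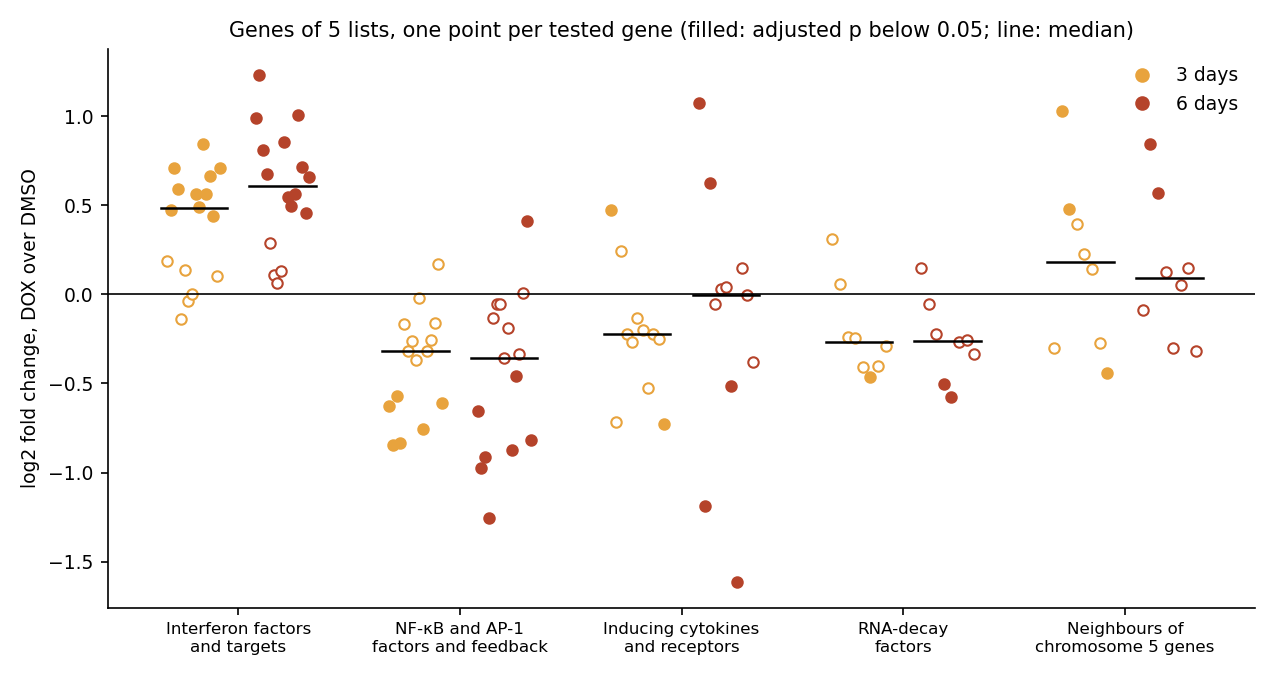
Log2 fold change of DOX over DMSO for each tested gene of 5 lists at 3 days (orange) and 6 days (red); filled points passed an adjusted p of 0.05 and the black line is the list median. Interferon factors and targets lie mostly above 0 and NF-κB and AP-1 genes mostly below, with medians of 0.61 and -0.36 at 6 days, while neighbours of the chromosome 5 genes lie on both sides.

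The tested protein-coding genes whose profile over the 16 libraries was most like the mean standardised log2 CPM of the 4 chromosome 5 genes were *Rrm2* (Pearson r = 0.993), *Dap* (0.990), *Ywhah* (0.990), *Nipal1* (0.989) and *Tmem252* (0.986). *Rrm2*, a subunit of ribonucleotide reductase, averaged 82.8 and 39.8 TPM at 3 days and 84.7 and 27.1 TPM at 6 days in DMSO and DOX. The genes most like *Cxcl10* and *Ccl5* were *Isg15* (0.968), *Chchd3* (0.960), *Prkrip1* (0.960), *2310039H08Rik* (0.951) and *Apopt1* (0.947), of which *Isg15* is an interferon-induced ubiquitin-like protein. All these coefficients rest on the same 16 libraries and carry the group differences.

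Library totals ran from 16933343 to 23960860 counts, and replicates of a group correlated at 0.981 to 0.992 in log2 CPM. The epithelial markers *Krt8* and *Epcam* were abundant in all groups. *Krt8* averaged 605 TPM in DMSO and 383 TPM in DOX at 3 days and 675 and 385 TPM at 6 days. *Epcam* averaged 206 and 168 TPM and then 229 and 187 TPM. The 5 principal cell markers of the collecting duct were scarce, summing to between 0.46 and 2.86 TPM per library. *Aqp3* had 9 to 31 counts, *Avpr2* at most 23, *Aqp2* at most 9, *Scnn1b* at most 7 and *Scnn1g* at most 6.

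*Cxcl10*, *Cxcl16* and *Ccl2* each overlap a gene on the other strand. The library kit was directional, but whether counting used the strand is not given in the sources used here. The partners were scarce: *Art3*, which overlaps *Cxcl10*, had at most 6 counts, *Zmynd15*, which overlaps *Cxcl16*, at most 54, and *Gm17268*, which overlaps *Ccl2*, had 0 in every library.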

How the data were processed

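RNA was measured in 16 libraries, 4 in each group, and groups and replicate numbers were read from the sample labels. Per the labels, the authors aligned read pairs to GRCm38.p6 with STAR 2.6.0c, and salmon is named in the submitters' processing notes. The authors deposited estimated counts per gene, which are not normalized, and TPM, which is scaled for transcript length and library total. Counts were rounded, genes below 1 CPM in more than 12 libraries were dropped, and TMM-scaled counts were fitted with edgeR 4.0.16 in R 4.3.3 (robust quasi-likelihood, 4 group means). glmTreat with a fold threshold of 1.2 gave the comparisons of DOX with DMSO and of times, and glmQLFTest the difference between times, two-sided, with Benjamini-Hochberg adjustment. The SE is the log2 fold change divided by the square root of the F statistic. CPM is relative to the library total, so it cannot show a change in RNA per cell. Positions come from GENCODE M21.

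The 10 genes and all lists were chosen with earlier results of these data known. Of the lists, called genes were named from the 5 largest changes per list and time, and not all of those 5 were named. Uncalled genes, and *Relb*, were named after their values were seen. For likeness, the 5 tested protein-coding genes with the highest r were taken. Calculations were tested on simulated data. Alternatives were RLE size factors, DESeq2 1.42.0, limma 3.58.1 on log2 TPM, other filters, no robust estimation, no fold threshold, a replicate block, only the 8 libraries compared, a length and GC offset, and each library left out. With 3 counts as the limit for a count of 0, the floor was 0.125 to 0.177 CPM, which covers counting error only.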

Additional observations from a re-analysis of the deposited data

Results flagged for a closer look

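The DOX effect differed between 3 and 6 days in an edgeR test of the difference itself for 4 of the 10 genes, against 17.0% of all genes tested. The log2 difference, 6 days minus 3 days, was -1.54 for *Ppbp*, -0.80 for *Cxcl5*, -0.59 for *Cxcl1* and 0.46 for *Cx3cl1*. The first 3 had lower log2 fold changes at 6 days than at 3 days, and *Cx3cl1* had a log2 fold change near 0 at 6 days. The *Cxcl1* and *Cx3cl1* calls were lost with the correction for transcript length and GC content, where the differences were -0.24 and 0.29, while those of *Ppbp* and *Cxcl5* were -1.17 and -0.49 and still called. In 40 groups of 4 libraries no TPM value passed Dixon's 95% limit, but for *Cxcl10* the first DMSO 6 days library, at 207 TPM against 141 to 153 TPM in the others, came just short of it. Without that library *Cxcl10* was called higher at 6 days (edgeR adjusted p = 0.00397).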

How the results depend on the processing

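Of the 10 genes, 8 were called at 3 days, but 5 with DESeq2, 4 with limma on log2(TPM + 1) and 5 with limma on log2(TPM + 0.1). Calls over all genes at 3 days moved too, from 1658 of 13234 to 1019 of 13234 with DESeq2. With limma they were 701 and 909 of 13180. At 6 days 6 of the 10 were called, and 3 with limma on log2(TPM + 1), beside 2856 of 13234 and 1307 of 13180 over all genes. Between DMSO at 6 and 3 days 0 of the 10 were called, and 1 without the fold threshold, beside 0 and 62 of 13234 over all genes. The difference between times was called for 4, but for 1 with a threshold of 1.2, 1 and 2 with limma at pseudocounts of 1 and 0.1, 2 with the length and GC offset and 2 with that offset and the replicate block. Over all genes the difference was called for 2252 of 13234, and for 183 with the threshold. With limma it was called for 659 and 631 of 13180, and with the offsets for 1768 and 1675 of 13234. Leaving out each library gave 6 to 8 called genes of the 10 at 3 days, 5 to 7 at 6 days, 0 between DMSO times and 2 to 5 for the difference. Over all genes the same gave 1366 to 2297, 2537 to 3057, 0 and 1370 to 3788. The cause of these changes was not tested. TPM moved the median log2 fold change of all genes to -0.15 (pseudocount 1) or -0.18 (0.1) at 3 days and to 0.10 or 0.12 for the difference.

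Equally numbered libraries did not deviate together (mean correlation -0.11, from -0.43 to 0.18), so the number was not used as a pair. With the replicate block 8, 6, 0 and 4 of the 10 genes were called, as without it, beside 1570, 2767, 0 and 1768 of all 13234 genes. *Ppbp* and *Cxcl5* kept their calls at 3 and 6 days under all alternatives run. Values that changed sign were never called. At 6 days *Cx3cl1* was 0.012 without the filter and 0.019 with limma at either pseudocount, and -0.095 to 0.032 with libraries left out. For the difference, *Cxcl16* was 0.049 and 0.051 with limma, *Cxcl2* 0.036 and *Ccl2* 0.30 with the length and GC offset, and 0.051 and 0.30 with the block added. With libraries left out the difference ran from -0.31 to 0.13 for *Cxcl2*, -0.20 to 0.041 for *Ccl2* and -0.22 to 0.25 for *Ccl28*, and *Cxcl5* between DMSO times from -0.0033 to 0.18. *Ccl28* could not be fitted with 1 CPM required in all 16 libraries, or at 6 days from its 8 libraries. With the median in place of the mean, all 40 group levels moved by less than 1 SD. A mean and a median never differ by more than 1 SD, so this could not fail and is no check.

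Over all genes, 1658 were called at 3 days (702 higher, 956 lower), 2856 at 6 days (1326, 1530), 0 between DMSO times and 2252 for the difference. These became 5982, 6702 and 62 without the threshold, 1019 at 3 days with DESeq2, 701 (85 higher, 616 lower) and 1307 (376, 931) with limma on log2(TPM + 1), 909 (104, 805) and 1527 (448, 1079) on log2(TPM + 0.1), and 6 between DMSO times without the filter. The difference gave 183 with a threshold, 659 and 631 with limma, and 1370 to 3788 with a library left out.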
